A study of Mus musculus with 16 samples.

Results

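The nuclear receptor family was followed in mouse TM4 cells through 44 genes, chosen by symbol from the families of the nuclear receptor superfamily and not by any measured value, of 56748 genes in the deposited counts. All 44 had a row in the counts, 37 were counted at least once, and 7 had no count in any sample. TM4 is an established mouse cell line of Sertoli cell origin, and Sertoli cells are the somatic cells that nurse germ cells in the testis. The cells were transfected with the pcDNA3.1-HA plasmid without insert (EV, 6 samples), with pcDgdf6Y (*gdf6Y*, 5 samples) or with pcDgdf6Ydel9 (del9, 5 samples). *gdf6Y* is the Y-linked gene of the turquoise killifish for a growth factor of the BMP type, and del9 is its mutant variant with an in-frame deletion in the prodomain. All groups, the controls included, received 2.5 µg of plasmid per well with a lipid reagent, 24 h after seeding, and RNA was taken 24 h later, so none of them is an untransfected control. The cells carry a fish gene on a plasmid for 1 day, the wells hold transfected and untransfected cells together, and the share of transfected cells is not given in the sources used here. A small change in all cells and a larger change in some of them therefore cannot be told apart.

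The poly(A) RNA of each sample was read on its strand, and between 21486850 and 26444903 reads per sample were counted on genes. Replicate libraries differed by more than sampling noise in all 35 pairs of the same group (chi-square per degree of freedom between 1.41 and 11.5 over genes whose mean count reached 10). Of 11 Sertoli cell markers, 5 reached a level of 1 TPM, the usual unit of transcript abundance per length and depth, with EV, among them *Gata4* and *Kitl*, while *Wt1* had no count in any sample and *Fshr* and *Cldn11* at most 1. Of 11 markers of interstitial and peritubular testis cells, 8 reached 1 TPM, with a summed level between 1945 and 2064 TPM in the EV samples that came mostly from *Col1a1*, 1817 and 2083 TPM with *gdf6Y* and 1786 and 1958 TPM with del9. Markers of Leydig cells (0 of 6), germ cells (0 of 4) and endothelium (0 of 3) did not reach 1 TPM, while 1 of 3 granulosa cell markers (*Fst*) and 1 of 4 macrophage markers (*Cd68*) did. The Sertoli cell markers summed to between 53.9 and 56.7 TPM with EV, 48.1 and 50.9 TPM with *gdf6Y* and 48.5 and 53.4 TPM with del9, so that every sample of both other groups lay under every EV sample. *Gata4* made up the largest part of this sum, with means of 29.4 TPM with EV, 25.0 TPM with *gdf6Y* and 27.3 TPM with del9. Against EV, 1 of 9 Sertoli cell markers tested was lower with *gdf6Y* and 0 of 10 with del9, at an adjusted p below 0.05 in edgeR. Of all genes, 3.38% and 4.43% were lower in these comparisons. The part of the shift in the marker sum in the receptor differences was not tested.

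Nuclear receptors are transcription factors that bind DNA with a pair of zinc fingers and, in many cases, change their activity when a small fat-soluble ligand enters their ligand-binding domain. Receptors for retinoic acid, thyroid hormone, vitamin D, oxysterols and fatty acids sit on DNA as dimers with a retinoid X receptor, whereas steroid receptors are held ready by heat shock chaperones and bind as homodimers. Orphan receptors such as the REV-ERBs, the COUP-TFs and the NR4A group act largely through their abundance. The DNA half-site that most of them read is AGGTCA or a close relative of it, and corepressors and coactivators carry their effect to chromatin. In the testis, receptors for androgen, estrogen, thyroid hormone and retinoic acid guide Sertoli cell growth and spermatogenesis, and COUP-TFII marks interstitial progenitors.

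The bases before the transcription start are shown for 4 of the 5 members called in 2 comparisons, since each is a place where receptors or clock factors could act. The fifth, *Nr2c2*, is not shown. The sequences come from RefSeq promoter windows (GRCm38.p6), which held 41 of the 44 genes, and were placed on GRCm39 by exact match. Bases from the first one inside an annotated untranslated region onward were left out. *Rarb* is an exception: all 250 of its bases fell under this rule, and only its repeat with a few bases on each side is shown. The 250 bases before each start were searched on both strands. Capitals mark a match, and a match describes letters only.

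The window of *Nr1d1*, for REV-ERBα, lies at chr11:98666204-98666453 on the minus strand, and capitals mark AACGTG, a variant of the E-box that clock factors read, which 3.85% of all 32851 windows held.
Nr1d1: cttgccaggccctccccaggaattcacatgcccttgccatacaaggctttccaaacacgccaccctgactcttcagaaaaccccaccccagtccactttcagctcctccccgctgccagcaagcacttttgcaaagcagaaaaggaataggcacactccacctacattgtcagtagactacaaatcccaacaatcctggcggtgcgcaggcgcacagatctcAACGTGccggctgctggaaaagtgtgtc
The window of *Nr1d2*, for REV-ERBβ, lies at chr14:4230340-4230544 on the plus strand, and capitals mark AGGTCA, the half-site of the family, which 14.0% of all windows held.
Nr1d2: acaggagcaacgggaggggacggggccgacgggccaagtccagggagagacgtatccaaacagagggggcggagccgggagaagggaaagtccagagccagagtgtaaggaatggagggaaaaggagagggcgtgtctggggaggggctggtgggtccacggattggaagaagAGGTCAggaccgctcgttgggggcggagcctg
The window of *Nr2f2*, for COUP-TFII, lies at chr7:70016520-70016744 on the minus strand and held none of the motifs searched.
Nr2f2: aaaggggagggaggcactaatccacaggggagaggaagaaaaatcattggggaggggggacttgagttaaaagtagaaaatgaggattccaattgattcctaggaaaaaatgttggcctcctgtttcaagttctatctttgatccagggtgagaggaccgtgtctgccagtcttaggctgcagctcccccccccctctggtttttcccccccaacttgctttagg
For *Rarb*, for retinoic acid receptor β, the bases at chr14:5894228-5894256 on the plus strand are shown, with capitals on 2 half-sites in the same direction.
Rarb: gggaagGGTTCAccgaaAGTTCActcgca

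The *Rarb* pair is spaced by 5 bases and begins 53 bases before the start. A direct repeat with this spacing, of half-sites AGGTCA or the variant GGGTCA or the variant AGTTCA or the variant GGTTCA, was held by 0.0883% of all windows and by 1 of the 41 receptor genes, *Rarb* itself. It is the textbook arrangement for a dimer of retinoic acid and retinoid X receptors. AGGTCA alone was held by windows of 9 of the 41 genes, among them *Nr1d2*, *Rarg*, *Rxra* and *Nr6a1*, and the E-box CACGTG (6.02% of all windows) by 5. Of the other motifs, TTATGNAA (3.07% of windows) and TGACGTCA (1.55%) were each held by 1 receptor gene, and repeats spaced by 1 or 2 bases (0.164% and 0.174%) by none. The 41 genes had 62 windows, so counts of genes and shares of windows are unlike measures.

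With EV, 21 of the 44 receptor genes reached a mean of 1 TPM, and 16 of them reached 10 TPM. TPM values are counts divided by the exonic length of the gene and scaled to the same total in each sample, and only these levels are compared between genes. *Rarg* was the most abundant at 151 ± 2.90 TPM (SD, n = 6), followed by *Nr3c1*, for the glucocorticoid receptor, at 99.0 ± 1.75 TPM. *Nr1d1* had 86.1 ± 4.06 TPM, *Nr2f6*, for a COUP-TF relative, 71.2 ± 2.13 TPM, and *Nr1h2*, for LXRβ, 61.4 ± 1.60 TPM. The ranges of these 5 genes over the EV samples did not overlap their neighbours in the order.

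*Esr1*, for estrogen receptor α, *Rxrb* and *Ppard* followed at 52.4 ± 2.11 TPM, 49.9 ± 1.43 TPM and 47.4 ± 1.30 TPM, and their ranges overlapped from each to the next. The next 4, *Nr2f2* with 42.4 ± 1.51 TPM, *Nr1d2* with 42.2 ± 1.06 TPM, *Rxra* with 41.0 ± 1.52 TPM and *Esrra*, for estrogen-related receptor α, with 38.7 ± 0.994 TPM, likewise overlapped from each to the next. Lower in the order stood *Nr2c2* with 30.7 ± 1.31 TPM, *Thra* with 26.8 ± 0.873 TPM, *Rara* with 19.2 ± 0.739 TPM and *Nr4a1* with 11.7 ± 0.715 TPM, each apart from the next. *Nr2f1* and *Nr4a2* overlapped at 8.65 ± 0.399 TPM and 8.004 ± 0.637 TPM, as did *Nr6a1* and *Rarb* at 2.87 ± 0.238 TPM and 2.39 ± 0.655 TPM, with *Nr2c1* between these pairs at 4.65 ± 0.172 TPM. The 21 expressed receptor genes had a median of 41.0 TPM, beside 29.5 TPM for the 10789 protein-coding genes at 1 TPM or more. With the length of the longest transcript in place of all exons the count at 1 TPM was the same, while *Nr1d1* had 68.4 TPM and *Esr1* 79.5 TPM.

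**Figure D1:**
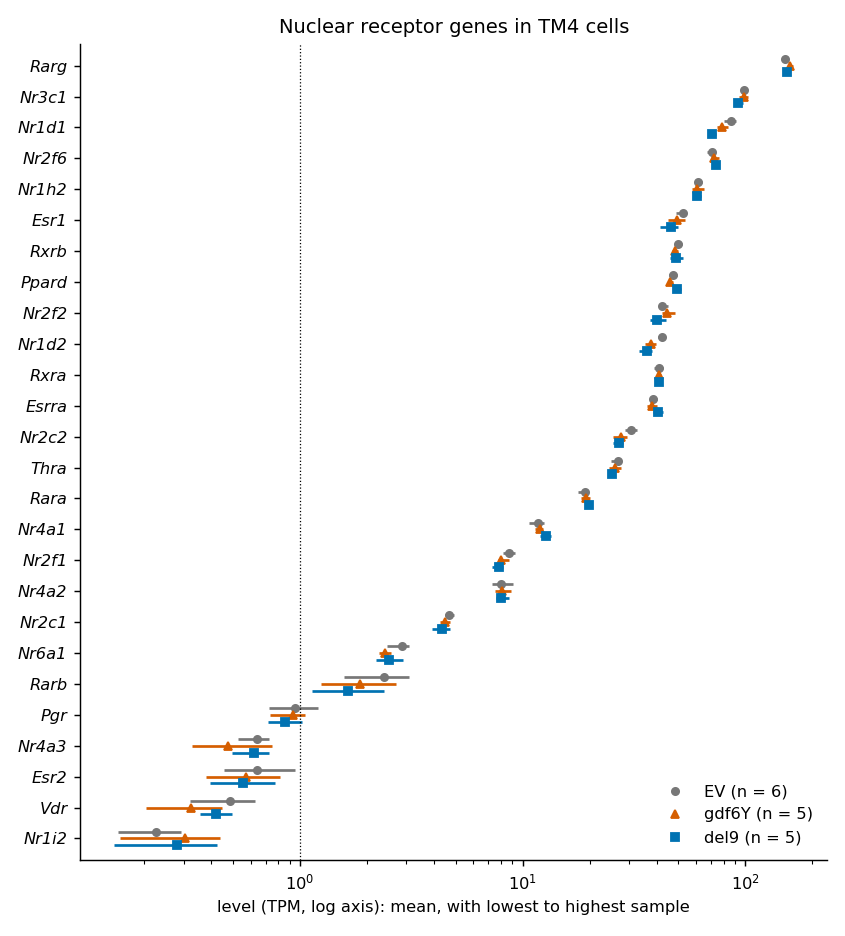
Levels of the nuclear receptor genes with a mean of at least 0.2 TPM in the EV samples, on a log axis, with the mean of each group as a symbol and a line from its lowest to its highest sample. The dotted line stands at 1 TPM, and 21 genes lie above it with EV, from *Rarg* at 151 TPM to *Rarb* at 2.39 TPM.

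By family, the thyroid hormone and retinoic acid receptors made up 22.2% of the summed receptor TPM with EV, the steroid hormone receptors 17.0%, the REV-ERB and ROR receptors 14.2%, the COUP-TFs 13.6% and the retinoid X receptors 10.1%. Most families held expressed members beside members near or at 0. Of the REV-ERB and ROR genes, *Nr1d1* and *Nr1d2* were expressed, while *Rora* and *Rorb* had at most 1 count in any sample. Of the retinoid X receptors, *Rxra* and *Rxrb* were expressed and *Rxrg* had no count. Of the PPARs, which sense fatty acids, *Ppard* was expressed, *Ppara* had at most 3 counts and *Pparg* at most 1. Of the thyroid hormone receptors, *Thra* had 26.8 ± 0.873 TPM and *Thrb* no count.

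The sum over the 44 genes was between 893 and 917 TPM in the EV samples, 868 and 913 TPM with *gdf6Y* and 852 and 874 TPM with del9. All del9 samples thus lay under all EV samples, whereas *gdf6Y* overlapped both. The mean sum of the REV-ERB and ROR genes was 128 TPM with EV, 117 TPM with *gdf6Y* and 107.1 TPM with del9, and that of the steroid hormone receptors 153, 149.9 and 141 TPM.

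The 3 comparisons asked which receptor genes differed between cells with *gdf6Y* and each control plasmid, and between the 2 controls. *gdf6Y* and del9 were compared with the same EV samples, so these comparisons share their controls and are set side by side only. Differences are log2 fold changes of normalized counts, and genes were called at an adjusted p below 0.05 over all genes tested. Against EV, 5 of 36 tested receptor genes were called with *gdf6Y*, 2 higher (*Rarg*, *Nr2f2*) and 3 lower (*Nr1d2*, *Nr2c2*, *Rarb*), where 5.08% of all 26316 genes were called (1.7% higher, 3.38% lower). Against del9, 2 of 37 were called with *gdf6Y*, both higher (*Nr1d1*, *Nr2f2*), where 1.01% of 25878 genes were called (0.599% higher, 0.41% lower). With del9 against EV, 9 of 36 were called, 4 higher (*Nr4a1*, *Nr2f6*, *Ppard*, *Esrra*) and 5 lower (*Nr1d1*, *Nr1d2*, *Esr1*, *Rarb*, *Nr2c2*), where 9.25% of 26226 genes were called (4.82% higher, 4.43% lower).

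The called receptor genes were all among the 24 whose mean count reached 10. Among all genes with such counts, 10.5%, 1.78% and 18.2% were called in the 3 comparisons, beside 20.8%, 8.33% and 37.5% of the 24 receptor genes. No receptor gene was called lower with *gdf6Y* than with del9, by edgeR or by DESeq2, and 2 (*Ppard*, *Esrra*) had an unadjusted p under 0.05 in that direction. The median log2 fold change of the 24 genes was -0.0044, 0.021 and -0.037 in the 3 comparisons, beside 0.00085, -0.0042 and 0.0051 for all genes with such counts. Called differences were small. Apart from *Rarb*, the log2 fold changes of called members lay between -0.24 and 0.16.

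**Figure D2:**
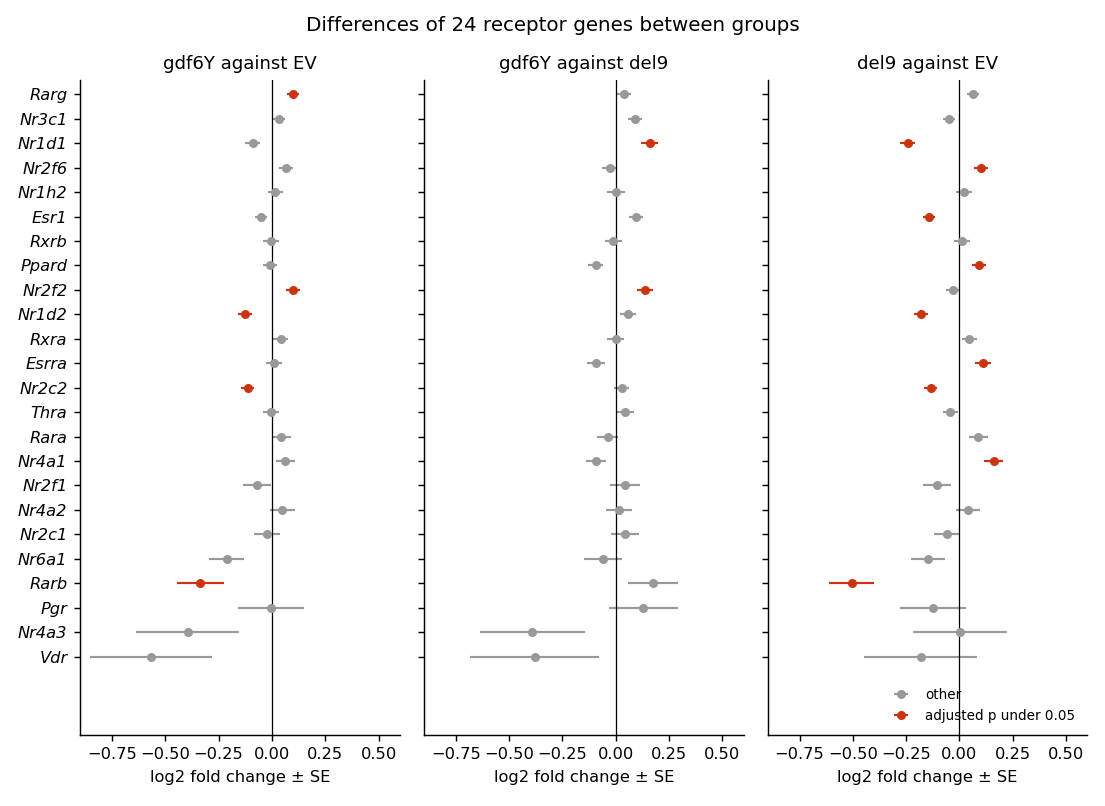
Log2 fold changes with their standard errors for the 24 receptor genes whose mean count reached 10, ordered by level, in the 3 comparisons. Red points had an adjusted p below 0.05 in edgeR's quasi-likelihood test over all genes tested, 5 in *gdf6Y* against EV, 2 in *gdf6Y* against del9 and 9 in del9 against EV.

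The REV-ERB genes, whose proteins are heme-binding repressors of the circadian clock, stood lowest in the del9 samples. *Nr1d1* (chr11:98658752-98666188, minus strand) had normalized counts of 1308 to 1475 (median 1374) in the EV samples, 1370, 1278, 1247, 1289 and 1322 with *gdf6Y*, and 1116, 1174, 1157, 1232 and 1168 with del9. Every del9 sample lay under every sample of the other groups, which overlapped each other. The log2 fold change was -0.24 ± 0.04 (SE; edgeR adjusted p = 7.95e-10) for del9 against EV, 0.16 ± 0.04 (SE; edgeR adjusted p = 0.00884) for *gdf6Y* against del9 and -0.09 ± 0.04 (SE; edgeR adjusted p = 0.125) for *gdf6Y* against EV.

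*Nr1d2* (chr14:4230545-4266624, plus strand) had 1816 to 1943 (median 1905) with EV, 1708, 1744, 1655, 1839 and 1728 with *gdf6Y* and 1736, 1669.7, 1544, 1723 and 1684 with del9. All del9 samples lay under EV, and all but 1 *gdf6Y* sample did. It fell with both, by 0.18 on the log2 scale with del9 (edgeR adjusted p = 2.37e-06) and by 0.13 with *gdf6Y* (edgeR adjusted p = 0.004), and between *gdf6Y* and del9 it differed by 0.06 ± 0.04 (SE; edgeR adjusted p = 0.654). The *Nr1d1* difference between *gdf6Y* and del9 was not called with 2 stricter count filters (adjusted p 0.0643 and 0.054) nor without *gdf6Y* replicate 1 or del9 replicate 3 (adjusted p 0.0572 and 0.0545). Without *gdf6Y* replicate 3, *Nr1d2* against EV had an adjusted p of 0.0509.

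**Figure D3:**
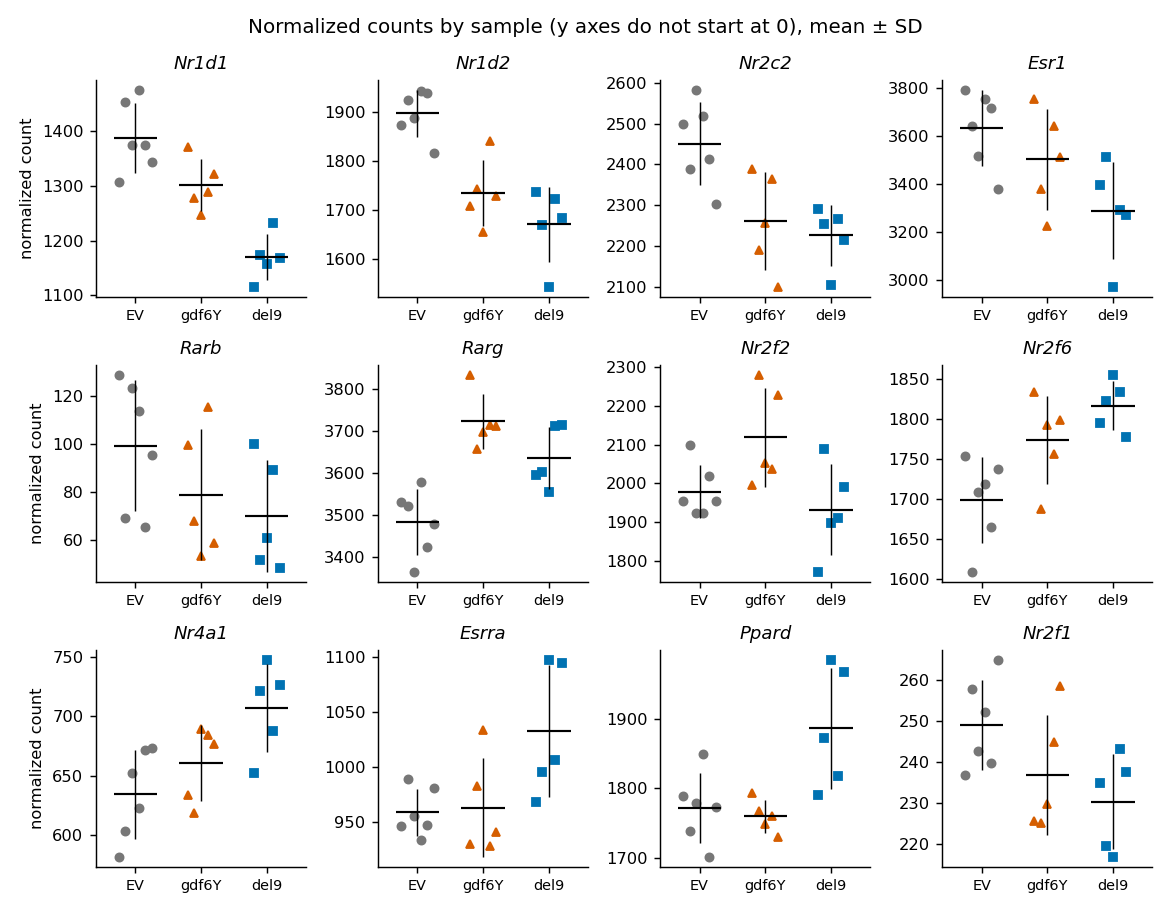
Normalized counts in each of the 16 samples for the 11 receptor genes called in any comparison and for *Nr2f1*, with the mean of each group as a horizontal line and its SD as a vertical line. Axes do not start at 0, so panels show differences and not levels. The del9 samples of *Nr1d1* lie between 1116 and 1232, under all others.

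REV-ERBs repress, and share regulators with, other genes of the clock, of which 18 were listed and all were tested. With del9, 6 of the 18 fell and 1 rose against EV, where 9.25% of all genes, and 18.2% of those whose mean count reached 10, were called. With *gdf6Y*, where these shares were 5.08% and 10.5%, 5 fell (*Hlf*, *Per1*, *Bhlhe40*, *Cry1*, *Dbp*) and none rose, with 2 higher at an unadjusted p under 0.05 and none called higher by DESeq2. Between *gdf6Y* and del9, where 1.01% and 1.78% were called, *Tef* and *Dbp* were higher with *gdf6Y* and none was lower, also by DESeq2 and at an unadjusted p under 0.05. The median log2 fold change of the list was -0.10, -0.06 and 0.0059 in these comparisons, beside -0.0054, -0.0021 and 0.0098 for all genes tested.

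*Dbp*, for a PAR-type activator whose transcript follows the clock, had 275 to 389 (median 334) with EV, 330.2, 273, 276, 289 and 295 with *gdf6Y* and 269, 200.2, 237, 258 and 206 with del9. The del9 samples all lay under the rest. On the log2 scale the fold change was -0.51 ± 0.06 (SE; edgeR adjusted p = 9.69e-14) for del9 against EV, -0.19 ± 0.06 (SE; edgeR adjusted p = 0.0374) for *gdf6Y* against EV and 0.33 ± 0.07 (SE; edgeR adjusted p = 0.000332) for *gdf6Y* against del9. *Tef*, for a relative of DBP, had its del9 samples under all others, at 1742, 1646, 1629, 1714 and 1631, where EV had 1794 to 2053 (median 1895) and *gdf6Y* 1948, 1846, 1830.3, 1915 and 1917. Its log2 fold change was -0.19 ± 0.03 (SE; edgeR adjusted p = 2.09e-07) for del9 against EV and 0.18 ± 0.04 (SE; edgeR adjusted p = 0.000174) for *gdf6Y* against del9. *gdf6Y* and EV overlapped for *Tef*, with a log2 fold change of -0.02 ± 0.03 (SE; edgeR adjusted p = 0.821).

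For *Hlf*, the third PAR factor, and *Per1*, a core repressor of the clock, both groups lay lower than EV and near each other. *Hlf* had 51.2 to 101 (median 80.7) with EV, 52.2, 37.2, 45.8, 48.8 and 29.0 with *gdf6Y* and 51.5, 38.3, 54.7, 56.0 and 39.8 with del9, and it fell by 44.8% with *gdf6Y* (edgeR adjusted p = 1.75e-08) and fell by 38.2% with del9 (edgeR adjusted p = 2.17e-06). It lay under all EV samples in 4 of 5 *gdf6Y* and 2 of 5 del9 samples. *Per1* had 1466 to 1614 (median 1510) with EV, 1393, 1303, 1286, 1424 and 1307 with *gdf6Y* and 1342, 1335, 1223, 1289 and 1279 with del9, with no overlap between EV and either group. Its log2 fold change was -0.18 ± 0.03 (SE; edgeR adjusted p = 1.66e-05) with *gdf6Y* and -0.24 ± 0.03 (SE; edgeR adjusted p = 1.23e-09) with del9. The gene that rose with del9 was *Csnk1e*, for a kinase of the PER proteins, with a log2 fold change of 0.11 ± 0.03 (SE; edgeR adjusted p = 0.0016). *Bhlhe40* and *Per3* completed the 6 that fell with del9. With DESeq2, 2 clock genes fell with *gdf6Y* and 5 with del9, and with a correction for exonic length *Bmal1* and *Csnk1e* were called higher with *gdf6Y* (log2 fold change 0.17 and 0.11).

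**Figure D4:**
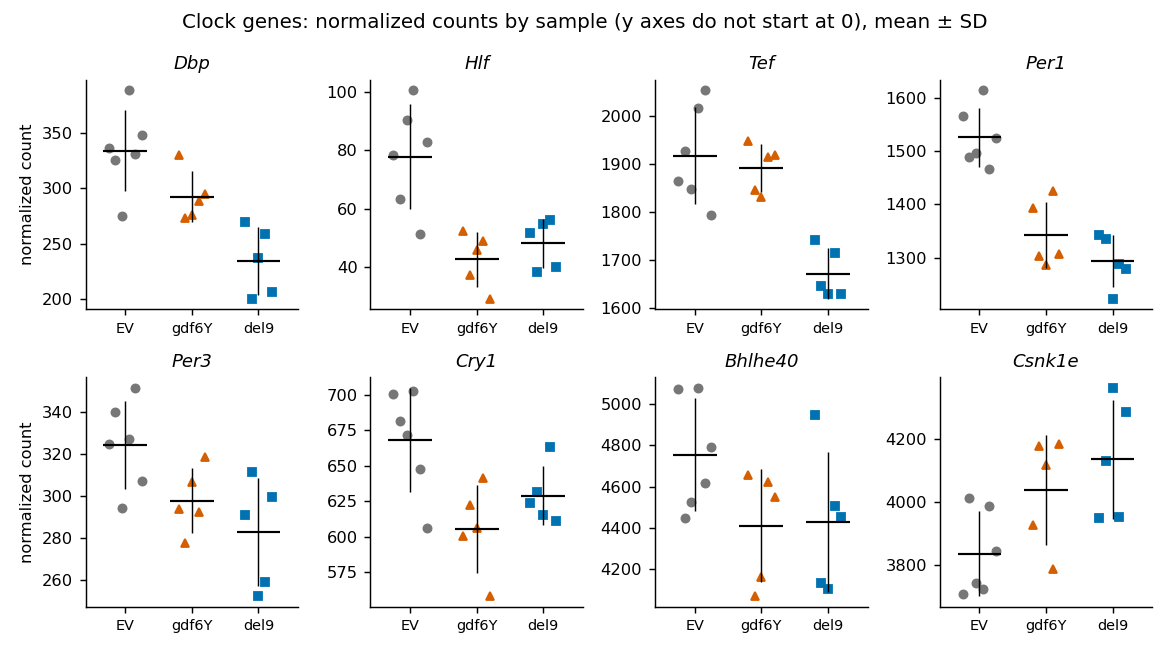
Normalized counts in each sample for the 8 clock genes called in any comparison, with group means as horizontal lines and SDs as vertical lines, on axes that do not start at 0. For *Dbp* and *Tef* the del9 samples lie lowest, and for *Per1* all *gdf6Y* and del9 samples lie under EV, whereas for *Hlf* 4 of 5 *gdf6Y* and 2 of 5 del9 samples do.

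Among the receptors for retinoic acid, *Rarg* was slightly higher with *gdf6Y* and *Rarb* lower with both plasmids. *Rarg* (chr15:102143373-102165952) had 3366 to 3579 (median 3502) with EV, 3835, 3659, 3699, 3716 and 3713 with *gdf6Y* and 3596, 3603, 3556, 3713 and 3716 with del9. All *gdf6Y* samples lay over all EV samples, and del9 overlapped both. The log2 fold change was 0.10 ± 0.03 (SE; edgeR adjusted p = 0.0198) for *gdf6Y* against EV, 0.06 ± 0.03 (SE; edgeR adjusted p = 0.155) for del9 against EV and 0.04 ± 0.03 (SE; edgeR adjusted p = 0.654) for *gdf6Y* against del9. *Rara* did not pass the test in any comparison, with 0.09 ± 0.04 (SE; edgeR adjusted p = 0.26) for del9 against EV. The *Rarg* call was lost with a correction for exonic length (adjusted p = 0.0562) and without EV replicate 3 (adjusted p = 0.0658).

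*Rarb* (chr14:5650540-6041094), itself a classical target of retinoic acid through the repeat shown above, was the receptor gene with the largest called difference, at a low level. Normalized counts with EV were 65.6 to 129 (median 105), with *gdf6Y* 99.5, 67.8, 53.3, 116 and 59.0 and with del9 100.2, 51.7, 60.8, 89.3 and 48.5. The groups overlapped widely, and the samples spread far within each. The coefficient of variation with EV was 27.4%, beside a median of 10.3% over 842 genes with like counts. In each group the samples numbered 1 and 4 were among the 3 highest. On the log2 scale the fold change was -0.51 ± 0.11 (SE; edgeR adjusted p = 9.99e-05) for del9 against EV, -0.34 ± 0.11 (SE; edgeR adjusted p = 0.0422) for *gdf6Y* against EV and 0.18 ± 0.12 (SE; edgeR adjusted p = 0.654) for *gdf6Y* against del9. For del9 the call was lost with DESeq2 and with both stricter count filters (adjusted p between 0.0751 and 0.174). For *gdf6Y* it was lost under 4 alternatives (adjusted p between 0.0524 and 0.322) and without EV replicate 1, 3 or 4 or *gdf6Y* replicate 2, 3 or 5 (adjusted p between 0.127 and 0.413), and DESeq2 gave it no adjusted p. Its log2 fold change was -0.21 without *gdf6Y* replicate 3 and -0.51 without *gdf6Y* replicate 4.

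Of 16 genes of retinoic acid metabolism and response, 15 were tested. None was called with *gdf6Y* against EV by edgeR or DESeq2, and 1 was lower at an unadjusted p under 0.05. *Aldh1a1*, for an enzyme that makes retinoic acid, fell with del9, with 48.9 to 59.2 (median 52.8) with EV and 50.6, 30.7, 37.5, 38.9 and 36.8 with del9, a log2 fold change of -0.45 ± 0.14 (SE; edgeR adjusted p = 0.023). All *gdf6Y* samples of *Aldh1a1* also lay under EV, at 41.4, 24.0, 47.6, 45.8 and 39.7, with a log2 fold change of -0.41 ± 0.14 (SE; edgeR adjusted p = 0.0757). *Dhrs3*, for a reductase that turns retinal back into retinol, was higher with *gdf6Y* than with del9, at 42.4, 33.9, 56.1, 32.8 and 44 against 31.5, 20.1, 26.3, 23.7 and 21.3. The 2 groups did not overlap each other, and EV overlapped both at 29.7 to 39.9 (median 33.6). The log2 fold change was 0.78 ± 0.18 (SE; edgeR adjusted p = 0.00209). DESeq2 called no gene of this list between *gdf6Y* and del9.

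The COUP-TFs are orphan receptors that mostly repress. *Nr2f2* (chr7:70001692-70016519) had 1923 to 2098 (median 1954) with EV, 1995, 2280.2, 2053, 2036 and 2228 with *gdf6Y* and 1772, 2089, 1898, 1912 and 1989.6 with del9. Replicate 2 was the highest sample of each group, replicate 5 the second highest, and the groups overlapped. On the log2 scale the fold change was 0.10 ± 0.03 (SE; edgeR adjusted p = 0.0421) for *gdf6Y* against EV, 0.14 ± 0.04 (SE; edgeR adjusted p = 0.0158) for *gdf6Y* against del9 and -0.03 ± 0.03 (SE; edgeR adjusted p = 0.574) for del9 against EV. It was the only receptor gene called against both controls with *gdf6Y*, in edgeR's test. Against EV the call was kept under 5 of 9 alternatives and lost under 4, DESeq2 among them (adjusted p between 0.0671 and 0.101). It was also lost without EV replicate 1, 3, 4 or 6 or *gdf6Y* replicate 2 or 5 (adjusted p between 0.061 and 0.262). Against del9 the call was kept under 6 of 9 alternatives and lost with DESeq2 and both stricter count filters (adjusted p between 0.295 and 0.304). It was also lost without *gdf6Y* replicate 2 or 5 or del9 replicate 1, 3 or 4 (adjusted p between 0.0703 and 0.179).

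*Nr2f6* (chr8:71826456-71835239) had 1608 to 1754 (median 1714) with EV, 1833, 1688, 1792, 1756 and 1798 with *gdf6Y* and 1795, 1822, 1855, 1833 and 1777 with del9. All del9 samples lay over all EV samples. The log2 fold change was 0.10 ± 0.03 (SE; edgeR adjusted p = 0.0271) for del9 against EV, 0.06 ± 0.03 (SE; edgeR adjusted p = 0.359) for *gdf6Y* against EV and -0.03 ± 0.04 (SE; edgeR adjusted p = 0.779) for *gdf6Y* against del9. *Nr2f1* (chr13:78337092-78348578) was the least abundant of the 3, with 237 to 265 (median 248) with EV, 226, 225, 229.8, 245 and 259 with *gdf6Y* and 235, 219, 217, 243 and 238 with del9. It overlapped in all groups, and its log2 fold changes did not pass the test (-0.07 ± 0.07 for *gdf6Y* against EV, 0.04 ± 0.07 for *gdf6Y* against del9 and -0.11 ± 0.07 for del9 against EV). The *Nr2f6* call was lost under 3 alternatives (adjusted p between 0.0526 and 0.0918) and without EV replicate 2 or 5 or del9 replicate 3 or 4 (adjusted p between 0.0595 and 0.133).

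*Nr2c2* (chr6:92068059-92151275), for testicular receptor 4, was lower with both plasmids. It had 2303 to 2583 (median 2456) with EV, 2390.1, 2192, 2258, 2365 and 2102 with *gdf6Y* and 2293, 2256, 2105, 2266 and 2215 with del9. The del9 samples all lay under EV, and the *gdf6Y* samples overlapped EV in part. On the log2 scale the fold change was -0.14 ± 0.03 (SE; edgeR adjusted p = 0.000285) with del9 and -0.11 ± 0.03 (SE; edgeR adjusted p = 0.00866) with *gdf6Y*, and 0.03 ± 0.04 (SE; edgeR adjusted p = 0.792) between the 2. Its relative *Nr2c1* differed from EV by -0.02 ± 0.06 with *gdf6Y* and -0.06 ± 0.06 with del9, neither of which passed the test. With a correction for exonic length the log2 fold change was -0.09 with del9 (adjusted p = 0.0448) and -0.05 with *gdf6Y* (adjusted p = 0.536). The *gdf6Y* call was also lost without EV replicate 3 or *gdf6Y* replicate 5 (adjusted p 0.0796 and 0.122).

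Of the steroid hormone receptors, *Esr1* was lower with del9. *Esr1* (chr10:4561593-4955626) had 3378 to 3793 (median 3679) with EV, 3755, 3379.8, 3223, 3643 and 3512 with *gdf6Y* and 3394, 3513, 2971, 3289.7 and 3269.5 with del9. Del9 replicate 3 was the lowest of all, and 2 del9 samples reached into the EV range. The log2 fold change was -0.14 ± 0.03 (SE; edgeR adjusted p = 3.51e-05) for del9 against EV, -0.05 ± 0.03 (SE; edgeR adjusted p = 0.436) for *gdf6Y* against EV and 0.10 ± 0.03 (SE; edgeR adjusted p = 0.175) for *gdf6Y* against del9. The call for del9 held under every alternative and without any 1 replicate, with log2 fold changes between -0.17 and -0.10.

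*Nr3c1*, the second most abundant receptor gene, did not pass the test in any comparison. It had 3772 to 3958 (median 3902) with EV, 3929.7, 4020.4, 3902, 4166 and 3786 with *gdf6Y* and 3789, 3887, 3626, 3767 and 3598 with del9, and its log2 fold change was -0.05 ± 0.03 (SE; edgeR adjusted p = 0.314) for del9 against EV and 0.09 ± 0.03 (SE; edgeR adjusted p = 0.228) for *gdf6Y* against del9. *Pgr*, for the progesterone receptor, had a mean of 40.5 ± 6.66 (SD, n = 6) with EV, *Esr2* had between 7 and 15 counts per sample, and *Nr3c2*, for the mineralocorticoid receptor, at most 2.

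Of 14 glucocorticoid receptor targets, 13 were tested with del9 against EV, and 5 fell (*Per1*, *Dusp1*, *Ddit4*, *Sgk1*, *Klf9*) while 2 rose (*Errfi1*, *Fkbp5*), beside 9.25% called of all genes and 18.2% of those whose mean count reached 10. *Dusp1*, for a phosphatase of MAP kinases, fell by 14.5% (edgeR adjusted p = 1.22e-06), *Sgk1*, for a serum- and glucocorticoid-induced kinase, fell by 14.3% (edgeR adjusted p = 4.05e-05) and *Ddit4*, an inhibitor of mTOR signaling, fell by 9.67% (edgeR adjusted p = 3.44e-05). All 3 overlapped EV. *Dusp1* had 738.5 to 1047 with EV and 708 to 885 with del9, and *Ddit4* 2471 to 3563 and 2307 to 2979. Their coefficients of variation with EV were 14.8% and 14.2%. *Errfi1*, for a feedback inhibitor of the EGF receptor, was higher with del9 than with either other group. It had 6843 to 7535 (median 7149) with EV, 6711, 7337, 7192, 7011 and 7352 with *gdf6Y* and 7437, 8334, 8126, 7887 and 8282 with del9, a log2 fold change of 0.16 ± 0.03 (SE; edgeR adjusted p = 9.79e-08) for del9 against EV and -0.17 ± 0.03 (SE; edgeR adjusted p = 1.95e-05) for *gdf6Y* against del9. The latter groups did not overlap. With *gdf6Y* against EV, *Ddit4*, *Dusp1* and *Per1* were called lower and *Mt1*, for a metallothionein, higher. Beside this, 5.08% of all genes and 10.5% of those whose mean count reached 10 were called. With *gdf6Y*, *Ddit4* had 2199 to 3128 and *Dusp1* 680 to 950, which overlapped EV widely. So did *Mt1*, at 391 to 674 against 351 to 623 with EV. The *Mt1* call was lost with a correction for exonic length (edgeR adjusted p = 0.0928). The members did not move in 1 direction, and DESeq2 called 1 lower and none higher in that comparison and 3 lower and 2 higher with del9.

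Among the other receptors, *Nr4a1*, for the immediate early receptor NUR77, rose with del9. *Nr4a1* (chr15:101151980-101172681) had 582 to 673 (median 638) with EV, 634, 619, 689.5, 685 and 677 with *gdf6Y* and 653, 721, 748, 688 and 726 with del9. Of the 5 del9 samples, 3 lay over all other samples. On the log2 scale the fold change was 0.16 ± 0.04 (SE; edgeR adjusted p = 0.00441) for del9 against EV, 0.06 ± 0.04 (SE; edgeR adjusted p = 0.57) for *gdf6Y* against EV and -0.09 ± 0.05 (SE; edgeR adjusted p = 0.609) for *gdf6Y* against del9. The first of these passed the test under every alternative and without any 1 replicate. *Nr4a2* and *Nr4a3* did not pass the test in any comparison.

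*Esrra* (chr19:6888338-6899336), for a regulator of mitochondrial genes, had 934 to 989 (median 952) with EV, 930.4, 983, 1033, 929 and 941 with *gdf6Y* and 968, 995.3, 1097, 1007 and 1095 with del9. Replicates 3 and 5 of del9 were the highest of the 16 samples. *Ppard* (chr17:28451674-28520448) had 1701 to 1849 (median 1776) with EV, 1794, 1768, 1748, 1761 and 1729.5 with *gdf6Y* and 1791, 1873, 1985, 1818 and 1967 with del9, where again replicates 3 and 5 of del9 stood highest. Both genes were called with del9 against EV, with log2 fold changes of 0.11 ± 0.04 (SE; edgeR adjusted p = 0.0425) and 0.09 ± 0.03 (SE; edgeR adjusted p = 0.042), and neither passed the test between *gdf6Y* and del9 (-0.09 ± 0.04 SE, edgeR adjusted p = 0.463 and -0.09 ± 0.04 SE, edgeR adjusted p = 0.292). The *Esrra* call was lost under 8 of 9 alternatives (adjusted p between 0.0515 and 0.117) and that of *Ppard* under 6 of 9 (adjusted p between 0.0557 and 0.132). Leaving out EV replicate 1, 3, 5 or 6 or del9 replicate 3 or 5 ended both calls, EV replicate 4 that of *Esrra* and EV replicate 2 that of *Ppard* (adjusted p between 0.0509 and 0.249).

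Genes that metabolic receptors are known to drive were called with del9 in 6.67% (PPAR), 25% (LXR) and 14.3% (vitamin D and thyroid hormone) of those tested, beside 9.25% of all genes. Among genes whose mean count reached 10, the share called with del9 was 18.2%. Of 15 PPAR targets tested, none was called with *gdf6Y* against EV or del9, by edgeR or DESeq2, with 1 lower at an unadjusted p under 0.05 in the first and none in the second. With del9, *Fabp4*, for a fatty acid carrier, was called lower (log2 fold change -0.26 ± 0.09 SE, edgeR adjusted p = 0.0474). Its samples overlapped widely, at 89.1 to 152 with EV and 77.6 to 141 with del9. Of 8 LXR targets tested, *Scd1*, for stearoyl-CoA desaturase, and *Apoe* fell with del9 (log2 fold change -0.08 ± 0.03 SE, edgeR adjusted p = 0.0331 and -0.41 ± 0.14 SE, edgeR adjusted p = 0.0338), and none was called in the comparisons of *gdf6Y*, by edgeR, by DESeq2 or at an unadjusted p under 0.05. Of 7 vitamin D and thyroid hormone genes tested, *Klf9* fell with del9 (log2 fold change -0.18 ± 0.04 SE, edgeR adjusted p = 7.00e-05). None of them was called with *gdf6Y* by edgeR or DESeq2, with 2 lower than EV and 1 higher than del9 at an unadjusted p under 0.05.

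Coregulators are the proteins through which receptors act on chromatin. Of 27 listed, 7 fell and 1 rose with *gdf6Y* against EV, and 6 fell and 3 rose with del9. These are 29.6% and 33.3% of the list, beside 5.08% and 9.25% of all genes and 10.5% and 18.2% of genes whose mean count reached 10. *Ep300*, for a histone acetyltransferase, had 3756 to 4127 (median 3897) with EV, 3746, 3282, 3286, 3412 and 2811 with *gdf6Y* and 3313, 3947, 3411, 3424 and 3474 with del9, and all *gdf6Y* samples lay under EV. Its log2 fold change was -0.24 ± 0.03 (SE; edgeR adjusted p = 2.89e-12) with *gdf6Y* and -0.15 ± 0.03 (SE; edgeR adjusted p = 8.75e-06) with del9. *Ncor1*, for a corepressor that silences unliganded receptors, fell with *gdf6Y* (log2 fold change -0.15 ± 0.03 SE, edgeR adjusted p = 5.77e-06). *Cited2*, for a coactivator partner of p300, was higher with *gdf6Y* than with del9 (log2 fold change 0.12 ± 0.03 SE, edgeR adjusted p = 0.0292), and was not called there with filterByExpr, a stricter count filter. The coactivator genes *Ncoa2* and *Ncoa6* fell with *gdf6Y* as well (log2 fold change -0.19 ± 0.04 SE, edgeR adjusted p = 2.65e-05 and -0.15 ± 0.03 SE, edgeR adjusted p = 0.000161).

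With a correction for exonic length per sample, the coregulators that fell were 4 with *gdf6Y* and 2 with del9, and those that rose were 1 in each. *Ep300* kept its call in both comparisons (log2 fold change -0.18 and -0.10), whereas *Ncor1* lost it (-0.07 with *gdf6Y*, adjusted p = 0.152, and -0.02 with del9, adjusted p = 0.678). The median log2 fold change of the list was -0.07 with *gdf6Y* and -0.04 with del9 without the correction.

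Of 12 listed chaperone genes, 6 rose with del9 and none fell, and 1, *Hsp90b1*, rose with *gdf6Y*, where 4.82% and 1.7% of all genes were called higher. Among genes whose mean count reached 10, 18.2% and 10.5% were called in either direction. *Hsp90b1* encodes GRP94, the form of HSP90 in the endoplasmic reticulum, which is not a chaperone of cytosolic steroid receptors, whereas the others listed act mostly in the cytosol. The log2 fold changes with del9 were small. They were 0.08 ± 0.02 (SE) for *Hsp90b1*, 0.08 ± 0.02 for *Fkbp4*, for an immunophilin that carries the glucocorticoid receptor to the nucleus, 0.08 ± 0.02 for *Hspa8*, 0.09 ± 0.03 for *Dnajb1*, 0.09 ± 0.03 for *Fkbp5* and 0.09 ± 0.03 for *Stub1*. All *Fkbp4* samples with del9 lay over EV, and so did all with *gdf6Y*, where the gene was not called (edgeR adjusted p = 0.2). None of the 12 was called lower by DESeq2 or had an unadjusted p under 0.05 in that direction, and between *gdf6Y* and del9 none was called by either tool, with 1 lower at an unadjusted p under 0.05. Of these calls with del9, 3 were made with the length correction and 2 with filterByExpr.

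**Figure D5:**
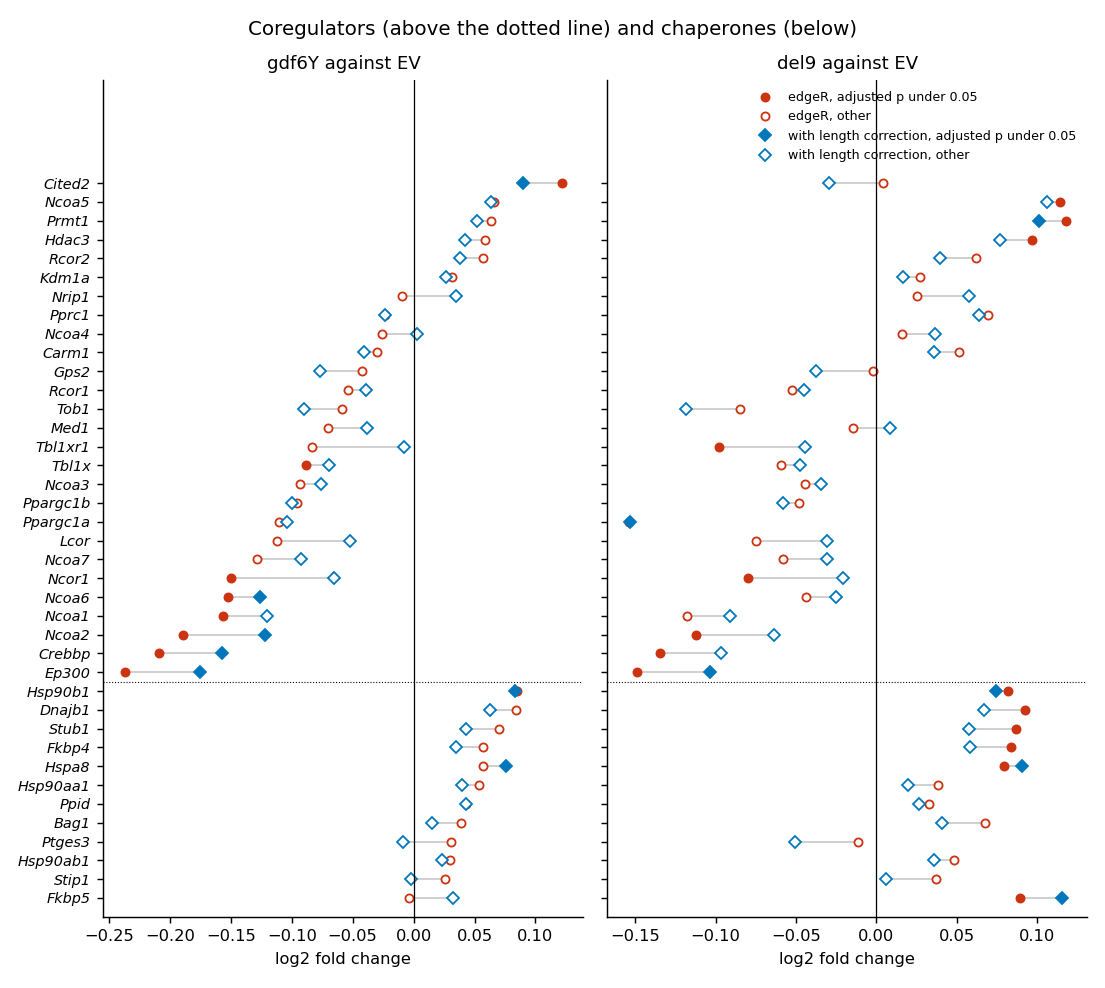
Log2 fold changes of 27 coregulator genes (above the dotted line) and 12 chaperone genes (below) with *gdf6Y* and with del9 against EV, from edgeR as used throughout (circles) and with a correction for exonic length (diamonds), with filled symbols for an adjusted p below 0.05. The correction moves most falling coregulators towards 0, and 4 of them with *gdf6Y* and 2 with del9 are still called lower.

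The remaining expressed members did not pass the test in any comparison. *Rxra* and *Rxrb*, the common partners, differed from EV by 0.04 ± 0.03 and -0.01 ± 0.04 (log2 fold change, SE) with *gdf6Y*, and *Nr1h2* by 0.02 ± 0.04. *Thra*, whose transcript overlaps that of *Nr1d1* tail to tail on the opposite strand, differed by -0.04 ± 0.04 with del9, where *Nr1d1* fell. *Nr6a1*, for germ cell nuclear factor, had 135 to 168 (median 160.2) with EV and 133, 132, 145, 127 and 133 with *gdf6Y*, a log2 fold change of -0.21 ± 0.08 (SE; edgeR adjusted p = 0.133).

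The other members were at the edge of detection. Of them, 13 had some counts but a mean under 10, with at most 15 counts in any sample, which gives these comparisons no precision. They include *Nr1h3*, for LXRα, with 1 to 6 counts per sample, *Nr1i2*, for the xenobiotic receptor PXR, with 2 to 6 and *Nr1i3*, for CAR, with at most 9. *Nr1h4*, for the bile acid receptor FXR, had at most 3 counts, *Esrrb* at most 2, and *Hnf4a* and *Esrrg* at most 1. Just over that mean, *Vdr*, for the vitamin D receptor, had 6 to 18 counts per sample and *Nr4a3* 10 to 23. *Thrb*, *Rxrg*, *Hnf4g*, *Nr2e1*, *Nr2e3*, *Nr5a2* and *Nr0b2* had 0 counts in all 16 samples. A count of 0 allows up to 3 counts, or 0.113 to 0.14 CPM at these depths, for counting error only.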

How the data were processed

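RNA of TM4 cells was sequenced in 16 samples, 6 with EV, 5 with *gdf6Y* and 5 with del9. The authors deposited raw read counts per gene for each sample, made with bcl2fastq 2.20.0.422, STAR 2.7.10a, UMI-tools deduplication and stranded counting in featureCounts 2.0.3 on the GRCm39 genome, per their processing notes and methods. Removing duplicates by molecular identifiers makes the counts molecules rather than PCR copies, and counting error at these depths is small for all but the lowest genes. Of 56748 gene identifiers, 56017 were found in the GENCODE M39 annotation, which gave symbols, lengths and coordinates.

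Samples were grouped by their labelled plasmid. Each pair of groups was fitted alone with edgeR 4.0.16 (TMM scaling, quasi-likelihood test, Benjamini-Hochberg adjustment) in R 4.3.3 over genes with at least 1 count in any of its samples. A normalized count is the count divided by the sample's effective library size, times the mean of that size over the 16 samples. The standard error is the size of the log2 fold change divided by the square root of F. The labels do not say whether replicates were separate cultures, so the spread between these samples may be technical. The p-values and standard errors of edgeR pool this spread over genes and do not rest on each gene's own spread alone. They can understate it for a gene that spreads more than genes with like counts. *Rarb* is such a gene, with a coefficient of variation of 27.4% with EV beside a median of 10.3%. Scripts were tested on simulated data, in which genes with like counts had the same spread. This check therefore says nothing about genes that spread more.

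Alternatives were DESeq2 1.42.0, its size factors, total counts, filterByExpr, at least 10 counts in every sample, 1 model over the 3 groups, a replicate block, a correction for exonic length, and each replicate left out. The list counts under DESeq2, filterByExpr, the block and the length correction, and the outlier test over all receptor genes, were added after seeing the data. The receptor genes, the other lists and their tests were chosen with earlier results of these data known. Full statistics were given for receptor genes called in any comparison and for the COUP-TFs, levels for the 12 most abundant, and of each other list up to 5 called genes with the smallest adjusted p. Other genes of these lists that complete a count (*Cry1*, *Bhlhe40*, *Per3*, *Bmal1*, *Cited2*, *Mt1*, *Stub1*), and the other expressed receptor genes given as examples, were named after their values were seen. *Fkbp5*, *Per1*, *Klf9* and *Pdk4* stand in 2 lists. One gene of the coregulator list is not reported here.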

Additional observations from a re-analysis of the deposited data

Results flagged for a closer look

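Among the 24 receptor genes whose mean count reached 10, 72 sets of replicates were searched for 1 sample far from the others, and 4 were found, which is near the 1 in 20 that chance alone gives. *Thra* was low in EV replicate 2, at 984 normalized counts where the other EV samples had 1046 to 1083, and in del9 replicate 2, at 985 where the others had 1028 to 1044. *Rara*, for retinoic acid receptor α, was low in EV replicate 2 as well, at 550.0 against 601 to 615. *Rxrb* was low in *gdf6Y* replicate 1, at 1018 against 1072 to 1082. None of these genes was called in any comparison, by edgeR.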

How the results depend on the processing

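No log2 fold change of a called receptor gene, or of the COUP-TFs, changed its sign in the settings run. Of 197 such values under the alternatives, 161 kept their side of the threshold and 36 lost the call, and of 238 values with 1 replicate left out, 197 kept it and 41 lost the call. Both totals include COUP-TF results that were not called in the main test and so had no call to lose. *Esr1*, *Nr1d1*, *Nr1d2*, *Nr2c2* and *Nr4a1* with del9 against EV stayed called under all 9 alternatives and all 11 left-out replicates.

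Of the 2 receptor genes higher with *gdf6Y* than EV, 1 was left under DESeq2, filterByExpr, at least 10 counts in every sample, the model over the 3 groups and the length correction. Of the 2 higher than with del9, 1 was left under DESeq2 and 0 under filterByExpr and under at least 10 counts. Of the 4 higher with del9 than EV, 2 were left under DESeq2, its size factors, filterByExpr, at least 10 counts and the length correction, and 1 under total counts and the model over the 3 groups. Over all genes, the 261 calls between *gdf6Y* and del9 became 81 under DESeq2, 45 under filterByExpr and 44 under at least 10 counts. The cause was not tested.

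With single replicates left out, all genes called ranged from 794 to 1751 for *gdf6Y* against EV (1338 with all samples), from 160 to 441 against del9 and from 1692 to 2715 for del9 against EV (2425 with all). Receptor genes called higher ranged from 0 to 2, 0 to 3 and 1 to 4, those called lower from 1 to 3, 0 to 0 and 5 to 5, and those at 1 TPM from 21 to 21.

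The groups share replicate numbers, and same-numbered samples deviated together in 4 of 5 pairs of *gdf6Y* and EV (correlation over 0.1, range 0.004 to 0.198). They did so in 4 of 5 of *gdf6Y* and del9 (0.0994 to 0.163) and 2 of 5 of del9 and EV (-0.0282 to 0.161). Samples correlated best with their own number, out of 5 candidate partners, in 6, 7 and 2 of 10 cases. The main tests did not use the replicate numbers as pairs. With the replicate block, all genes called were 2114 for *gdf6Y* against EV and 661 for *gdf6Y* against del9 (662 with the length correction added), and 4 receptor genes were higher with *gdf6Y* than del9 with the block, also with the length correction, *Esr1* and *Nr3c1* in addition. *Nr1d1* was then called lower with *gdf6Y* than EV (log2 fold change -0.10), as it was with the length correction alone (-0.12).

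In the other lists, counts that moved by over 1.5 times were those of clock genes, coregulators, chaperones, and glucocorticoid, retinoic acid, LXR and PPAR genes in at least 1 alternative each. Of LXR targets lower with del9, DESeq2 called 1. Retinoic acid genes lower with del9 were 2 under filterByExpr, and PPAR targets 2 under the length correction. Single genes of these lists were not refitted without each replicate. Depth limits the 13 receptor genes under a mean count of 10.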
